A study of Arabidopsis thaliana with 3 samples.

Results

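The sites described here are the C-to-T and G-to-A changes of chromosome 5 in a bulked segregant experiment on the thm1 mutation of Arabidopsis thaliana, a small flowering plant. They were chosen by chromosome and base change alone: single-base sites on nuclear chromosome 5 (TAIR10) at which WTa carries G and the alternative is A, or WTa carries C and the alternative is T. This gave 298 sites, 180 of them G-to-A and 118 C-to-T, out of 1990 in the whole table and 441 on chromosome 5. The study sequenced leaf genomic DNA of 3 libraries. WTa has the genotype WT and supplies the allele against which each site is read. The thm1_like pool is labelled as thm1 mutant, and the WTa_like pool as WT. Each group is 1 library without replicates, and the labels give neither the size of the pools nor the mutagen nor the cross.

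In bulked segregant analysis, plants of a segregating family are sorted by phenotype and each sort is sequenced as 1 pool. An allele unlinked to the phenotype is present at a similar share in both pools, whereas an allele linked to the causal change is enriched in one of them. C-to-T and G-to-A are the same base-pair change seen on opposite strands, since a C on the listed strand pairs with a G on the other. Alkylating mutagens such as ethyl methanesulfonate are known for this change, because they modify guanine so that it pairs with thymine. The SNP-index of a pool at a site is the fraction of reads with the changed, non-WTa allele. Subtracting the WTa_like index from the thm1_like index gives delta.

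At the 298 sites, both pools had a median depth of 24 reads, with a range of 7 to 75 for thm1_like and 7 to 69 for WTa_like, and WTa had 13 (2 to 32). Summed over the sites, the pools had 8012 and 7799 reads. With 12 changed reads of 24, the exact 95% binomial interval (Clopper-Pearson) runs from 0.291 to 0.709. For a count of 0 the limit is set at 3 counts of the depth, a different bound, so that 0 of 24 reads would permit 12.5%. Intervals and limits cover counting error only, because reads amplified by PCR are not independent molecules. WTa carried the reference base at all 298 sites, with fewer than 5 reads at 8 of them. No site of the table had fewer than 7 reads in a pool, and at each of the 298 the higher of both indices was 0.296 or more. Sites at which both pools are low are not analysed here, so mean indices over the listed sites are not means over all mutations of the chromosome. A listed site with an index under 0.296 in 1 pool also has the higher index in the other pool. The listing thus shapes the counts of low indices, of lower and higher sites, and of calls given below. DNA was sheared to fragments of about 350 bp, and 11 of the 298 sites lie within that distance of another and can share fragments.

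The C-to-T alleles of chromosome 5 were scarcer in the thm1_like pool than in the WTa_like pool, and the G-to-A alleles were present at nearly equal shares. At the 118 C-to-T sites the mean index was 0.309 for thm1_like (SD 0.126 over sites) and 0.512 for WTa_like (SD 0.1495), a mean delta of -0.20 (SD 0.191). The thm1_like index was the lower one at 102 of these sites and the higher one at 16. At the 180 G-to-A sites the mean index was 0.412 (SD 0.146) against 0.415 (SD 0.141), a mean delta of -0.0036 (SD 0.186), with 86 sites lower, 91 higher and 3 equal. Summed over C-to-T sites, 978 of 3152 thm1_like reads carried the changed allele (31.0%, exact 95% interval 29.4 to 32.7), against 1506 of 2983 WTa_like reads (50.5%, 48.7 to 52.3). Linked sites are carried by the same plants, so these read intervals do not measure how the pools would vary in a repeat.

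Both classes together had a mean index of 0.371 for thm1_like (SD 0.147) and 0.453 for WTa_like (SD 0.152). Their mean delta was -0.083 (SD 0.211), and 188 of the 298 sites were lower in the thm1_like pool, 107 higher and 3 equal. Across the sites the indices of the pools had a Spearman correlation of -0.022 (n = 298 sites, which share libraries and neighbours). Delta had a Spearman correlation of 0.013 with the summed depth of both pools.

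The classes lay in blocks along the chromosome, as the plot of the indices shows. Ordered by position, the 298 sites formed 37 runs of 1 class, and 264 of them were in the 13 runs of at least 4 sites. The longest run held 60 C-to-T sites in succession, from 5540269 to 11634037, a stretch of 6.09 Mb. Its mean index was 0.297 for thm1_like and 0.509 for WTa_like, and 54 of its 60 sites were lower in the thm1_like pool. All 6 C-to-T runs of at least 4 sites lay between 5540269 and 16661634, a stretch of 11.1 Mb called the central zone below. It was delimited by class alone, although its definition was written after the values were seen. The central zone held 109 of the 118 C-to-T sites and 13 G-to-A sites. The left zone, from 192383 to 5246381, held 43 sites of the G-to-A class and 7 of the C-to-T class, and the right zone, from 16998650 to 26928263, held 124 and 2. Density was similar, with 9.89 sites per Mb in the left zone, 10.97 in the central zone and 12.7 in the right zone.

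**Figure D1:**
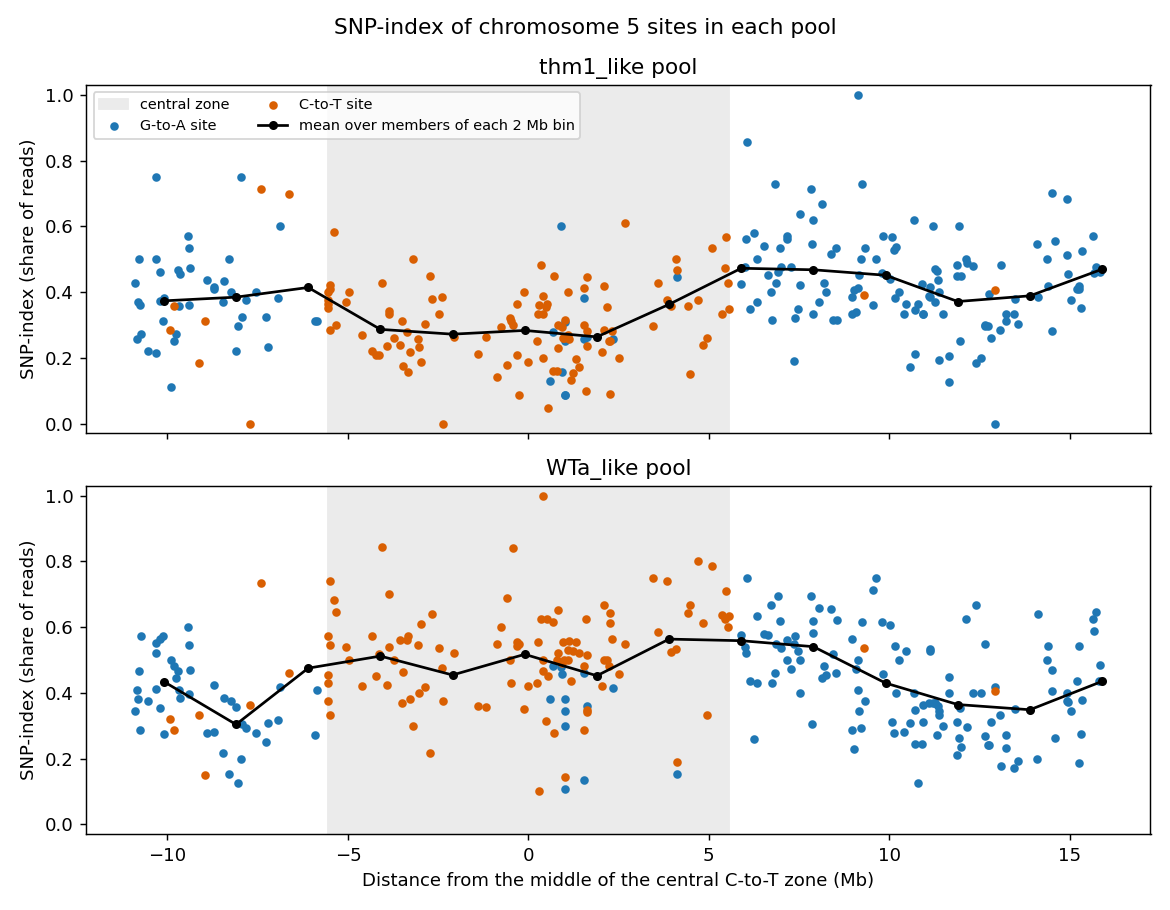
Each point is 1 of the 298 sites, placed by its distance in Mb from the middle of the central zone (shaded), with its SNP-index in the thm1_like pool (top) and the WTa_like pool (bottom); colour gives the class and the black line joins means over bins of 2 Mb. Inside the shaded zone the mean index was 0.30 for thm1_like and 0.502 for WTa_like, and the sites there are mostly C-to-T.

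In the central zone the pools parted in both directions relative to the flanks. Its 122 sites had a mean thm1_like index of 0.30 (SD 0.118), against 0.386 in the left zone (SD 0.152, 50 sites) and 0.434 in the right zone (SD 0.142, 126 sites). The WTa_like index was 0.502 there (SD 0.153), against 0.381 in the left zone (SD 0.125) and 0.435 in the right zone (SD 0.145). Mean delta was therefore -0.20 in the central zone (SD 0.192), with 106 sites lower and 16 higher. In the left zone it was 0.0048 (SD 0.178; 24 lower, 26 higher), and in the right zone -0.0013 (SD 0.185; 58 lower, 65 higher, 3 equal). An index below 0.3 in the thm1_like pool occurred at 63 of the 122 central sites and at 28 of the 176 flanking ones. In the WTa_like pool it occurred at 10 and 40. Because the higher of both indices was 0.296 or more at every listed site, these counts are not independent of delta. An index of at least 0.5 was found at 7 central sites in the thm1_like pool and at 70 in the WTa_like pool. Median depth in the central zone was 24 reads in both pools, the same as over all 298 sites.

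In bins of 2 Mb, mean delta was -0.061 from 0 to 2 Mb (27 sites), 0.081 from 2 to 4 Mb (18 sites) and -0.061 from 4 to 6 Mb (14 sites). It lay between -0.18 and -0.23 in each of the 5 bins from 6 to 16 Mb. From 6 to 8 Mb it was -0.23 (SD 0.147), with all 18 sites C-to-T and 17 of them lower in the thm1_like pool. The bin from 12 to 14 Mb had the most sites, 36, with a mean index of 0.264 against 0.452. From 16 to 18 Mb delta was -0.086 (21 sites) and from 18 to 20 Mb -0.073 (23 sites, all G-to-A). The last 4 bins, from 20 Mb on, were between 0.0069 and 0.040. The WTa_like index stayed high beyond the right edge of the central zone, at 0.536 up to 20 Mb (SD 0.105, 37 sites), and was 0.393 past 20 Mb (SD 0.138, 89 sites). The thm1_like index in these stretches was 0.479 (SD 0.138) and 0.415 (SD 0.140).

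Across the right edge the class and the indices of both pools differed. The last 10 sites of the central zone, from 15580101 to 16661634, were all C-to-T, with a mean index of 0.371 for thm1_like and 0.640 for WTa_like (delta -0.27, SD 0.140). The first 10 sites of the right zone, from 16998650 to 17730475, were all G-to-A, with 0.510 and 0.530 (delta -0.020, SD 0.163). At the left edge the class differed too, but of the indices mainly that of the WTa_like pool. The 10 sites before it, from 3397994 to 5246381, had 0.398 for thm1_like and 0.381 for WTa_like (delta 0.017, SD 0.170, 3 of 10 C-to-T). The 10 sites after it, from 5540269 to 6053181, had 0.386 and 0.531 (delta -0.15, SD 0.155).

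**Figure D2:**
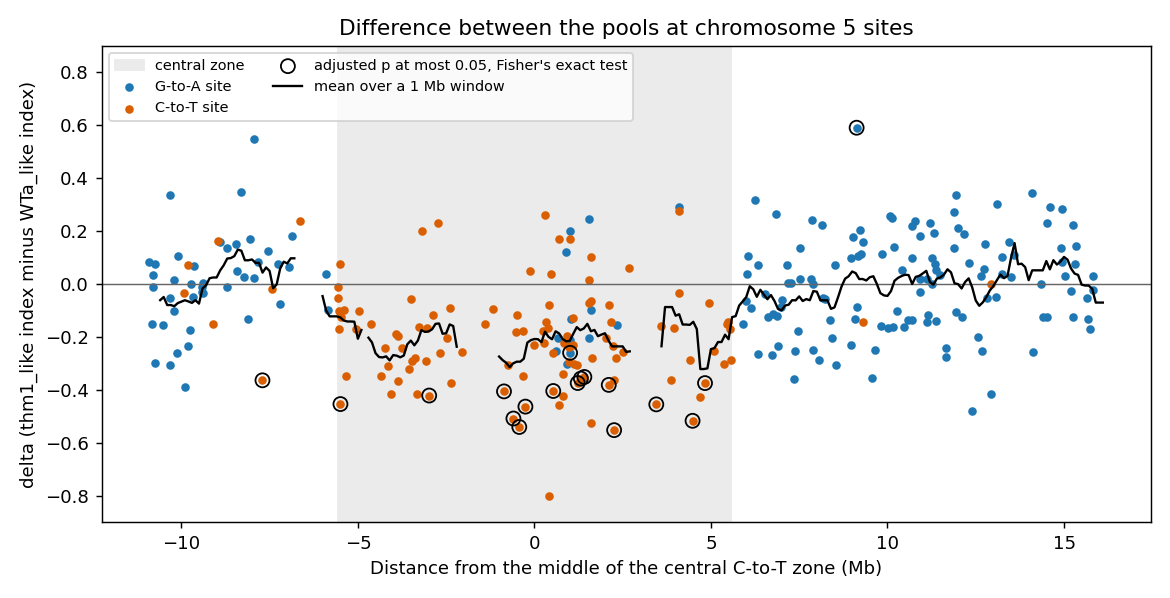
Delta (thm1_like index minus WTa_like index) of each of the 298 sites against the distance in Mb from the middle of the central zone (shaded); colour gives the class, the line is the mean over windows of 1 Mb with at least 5 sites, broken where windows hold fewer, and rings mark sites with an adjusted p of at most 0.05 by Fisher's exact test. The window mean is below 0 in all 81 windows inside the shaded zone, which overlap and share sites.

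A 1 Mb window slid by 100 kb at a time gave 241 positions with at least 5 sites. Neighbouring windows share most of their span and in places all of their sites, so counts of windows are not counts of independent observations. All 81 windows that lay wholly in the central zone had a mean delta below 0, from -0.32 to -0.087, and 78 of them were at -0.1 or lower. Of the 140 windows wholly outside it, 63 were below 0 and 0 reached -0.1 (range -0.099 to 0.15). The lowest window was 15.3 to 16.3 Mb, where 6 C-to-T sites had a mean index of 0.319 against 0.640 (delta -0.32, SD 0.155). The run of adjoining windows around it at or below -0.1 reached from 14.6 to 17.3 Mb, and its 22 sites averaged a delta of -0.15 (SD 0.205). Its 16 C-to-T sites had a mean delta of -0.21 (SD 0.185; 15 lower, 1 higher), and its 6 G-to-A sites 0.022 (SD 0.161; 3 lower, 3 higher). This run covers only the end of the central zone and extends past it into the right zone. To its left, the windows that start at 14.3, 14.4 and 14.5 Mb had a mean delta of -0.087 over 7 sites each. These sites include 15206282 and 15206287, both higher in the thm1_like pool and close enough to share fragments. The window from 14.2 to 15.2 Mb, which lacks this pair, had a mean delta of -0.23 over 5 sites. With windows of 2 Mb the lowest window was 8.9 to 10.9 Mb (delta -0.30, 12 sites) and the run reached from 4.5 to 15.4 Mb (113 sites, mean delta -0.19). Windows were chosen by delta, so their values are descriptions. The highest window, 24.2 to 25.2 Mb, had 7 G-to-A sites with a mean index of 0.384 against 0.229 (delta 0.15, SD 0.125).

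Class and position were nearly inseparable, and the exceptions were few. The 13 G-to-A sites inside the central zone had a mean delta of -0.074 (SD 0.210) and a median of -0.16, with 9 lower and 4 higher. Of these, 12 lay between 10 and 14 Mb, with a mean delta of -0.10 (SD 0.187; 9 lower, 3 higher). Some of the 13 lie close enough to one another to share fragments. The 9 C-to-T sites outside the central zone had a mean delta of -0.026 (SD 0.180), with 5 lower and 4 higher. The 2 Mb bins that held at least 3 sites of each class numbered 6, and C-to-T had the lower mean delta in 5 of them, with a median difference of -0.14. In the bin from 0 to 2 Mb the difference was 0.026. The bins from 4 to 6 Mb and from 16 to 18 Mb span an edge of the central zone, with nearly all C-to-T sites inside it and all G-to-A sites outside. These bins therefore do not separate class from zone. A C-to-T site at 15206282 (7 of 15 against 4 of 21 reads, delta 0.28) and a G-to-A site at 15206287 (8 of 18 against 4 of 26 reads, delta 0.29) lie close enough to share fragments. Both were higher in the thm1_like pool, unlike most sites around them.

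Sites of other kinds had no part in drawing the central zone. Over 65 other substitutions in the zone the mean delta was 0.0013 (SD 0.200), with 35 lower and 30 higher. Their median delta was -0.048, and delta from summed reads was -0.034. Other substitutions of the left zone had a mean delta of -0.21 (SD 0.249, 5 sites) and those of the right zone 0.056 (SD 0.149, 10 sites). Between 10 and 14 Mb lay 61 of the 80 other substitutions of the chromosome, with a mean index of 0.351 in both pools. The 27 indels of the zone had a mean delta of -0.17 (SD 0.236), but indels were also lower in the thm1_like pool in the left zone (-0.16, SD 0.290, 15 sites) and the right zone (-0.10, SD 0.262, 21 sites). The C-to-T sites of the zone had a delta of -0.22 (SD 0.185, 109 sites), and without the stretch from 10 to 14 Mb, where other substitutions cluster, -0.20 (SD 0.166, 56 sites, 52 of them lower).

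**Figure D3:**
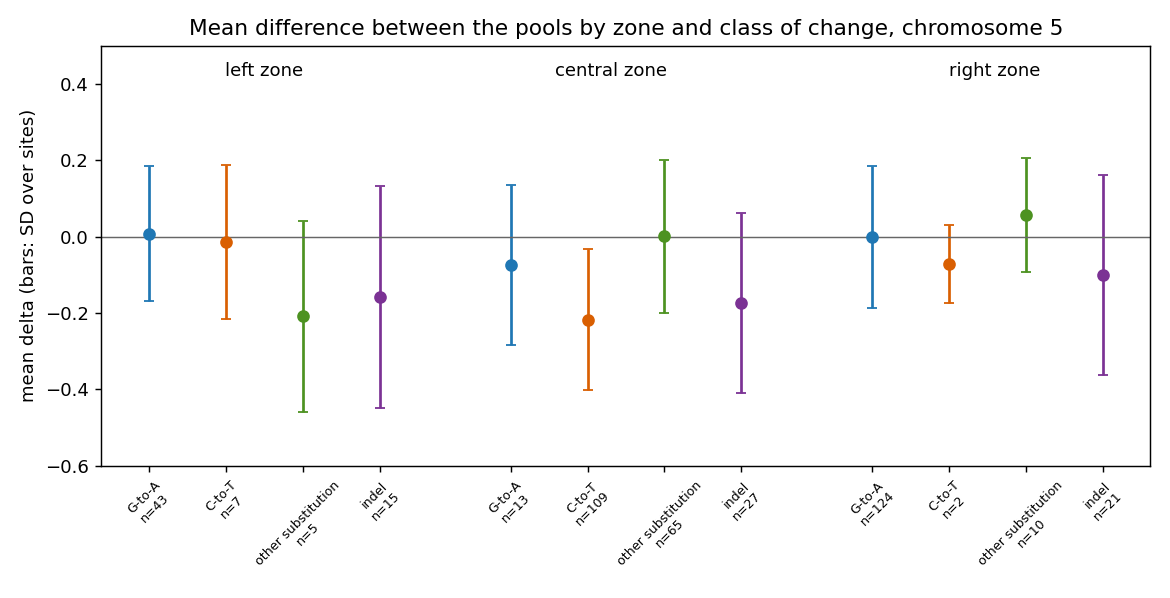
Points give the mean delta of each class of change in the left, central and right zones of chromosome 5, bars the SD over sites, and n the number of sites. C-to-T sites of the central zone have the lowest mean of that zone (-0.22), while other substitutions there are at 0.0013; several flanking groups rest on fewer than 20 sites.

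The same classes on the other chromosomes leaned the other way or less far. Mean delta of C-to-T sites was -0.13 on chromosome 1 (SD 0.204, 32 sites), 0.024 on chromosome 2 (SD 0.184, 129 sites), 0.14 on chromosome 3 (SD 0.216, 229 sites) and 0.21 on chromosome 4 (SD 0.253, 19 sites). For G-to-A sites it was 0.079, 0.17, 0.089 and 0.40 in that order. Over the 1070 C-to-T and G-to-A sites of these 4 chromosomes, 325 were lower in the thm1_like pool and 739 higher. With 1 library per pool and linked sites, the difference between chromosomes was not tested.

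Reads of both pools at each site were set against each other with Fisher's exact test (two-sided), a comparison of these libraries rather than of the conditions. The test covered every nuclear site covered by 10 or more reads per pool, 1816 in all, with Benjamini-Hochberg adjustment at 0.05. Of the 274 chromosome 5 sites so tested, 17 were lower in the thm1_like pool (6.20%) and 1 was higher (0.365%). The background was 4.41% lower and 8.20% higher over all 1816 sites, and 2.63% lower and 11.1% higher over the 1253 tested C-to-T and G-to-A sites of the genome. Chromosome 5 thus held 17 of the 33 lower C-to-T and G-to-A calls. At each of the 298 sites the higher of both indices was 0.296 or more. A listed site with a thm1_like index under 0.296 therefore has a higher WTa_like index in advance. The counts of calls are thus not independent of the listing and are descriptions. By class, 16 of 110 C-to-T sites were called lower (14.5%) and 1 of 164 G-to-A sites (0.610%). By place, 16 of 116 tested sites of the central zone were called lower (13.8%), against 1 of 158 in the flanks (0.633%). Between 10 and 14 Mb, 11 of 60 tested sites were called lower (18.3%). Outside that stretch 6 of 214 tested sites were called lower (2.80%). Outside gene bounds 9 of 97 tested sites were called lower (9.28%), in pseudogenes 4 of 30 (13.3%) and in protein-coding bounds 3 of 141 (2.13%). In non-coding RNA genes it was 1 of 2 tested sites.

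**Figure D4:**
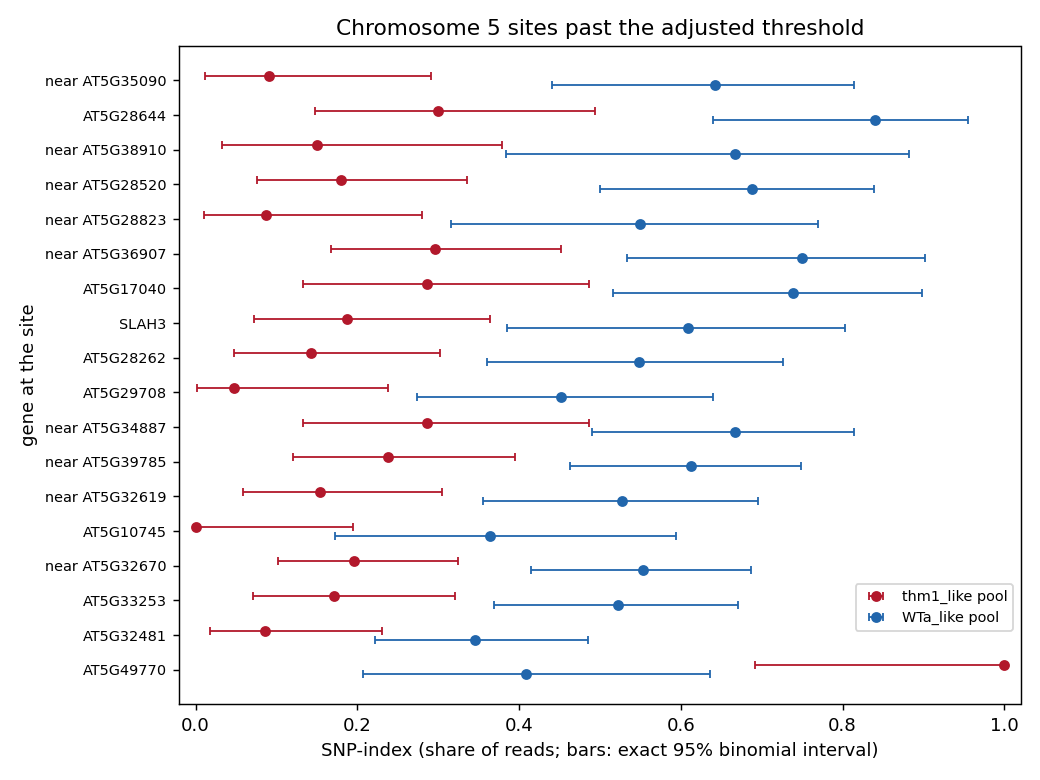
For each of the 18 called sites, named by the gene that holds it or the nearest protein-coding gene ("near"), points show the SNP-index in the thm1_like and WTa_like pools with exact 95% binomial intervals. Only the site in AT5G49770 is higher in the thm1_like pool; the intervals of the pools still overlap at some called sites, such as that in AT5G10745.

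The called sites in protein-coding bounds were a C-to-T change each. SLAH3 (AT5G24030), a homologue of the guard cell anion channel SLAC1, had 6 of 32 thm1_like reads and 14 of 23 WTa_like reads with the changed allele at 8120266 (delta -0.42, adjusted p = 0.0240 by the exact test). AT5G17040 had 8 of 28 against 17 of 23 reads at 5606388 (delta -0.45, adjusted p = 0.0240 by the exact test), where the WTa allele rests on 3 reads. AT5G10745, in the left zone, had 0 of 17 against 8 of 22 reads at 3397994 (delta -0.36, adjusted p = 0.0466 by the exact test). By the limit of 3 counts, 0 of 17 allows a thm1_like share of up to 17.6%, and the exact 95% interval reaches an index of 0.195.

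Among the sites called lower, the largest differences lay between genes or in pseudogenes of the central zone. At 13358228, 142 bp from AT5G35090, 2 of 22 against 18 of 28 reads carried the changed allele (delta -0.55, adjusted p = 0.00348 by the exact test). In the pseudogene AT5G28644, at 10671939, the counts were 9 of 30 and 21 of 25 (delta -0.54, adjusted p = 0.00348 by the exact test). At 15580101, 368 bp from AT5G38910, they were 3 of 20 and 10 of 15 (delta -0.52, adjusted p = 0.0368 by the exact test). At 10505564, 10553 bp from AT5G28520, they were 7 of 39 and 22 of 32 (delta -0.51), the smallest adjusted p among the 274 tested sites (0.00123 by Fisher's exact test).

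Further called sites outside gene bounds lay nearest to AT5G28823 (10845793, delta -0.46), AT5G36907 (14552459, delta -0.45), AT5G34887 (13206201, delta -0.38), AT5G32619 (12326709, delta -0.37) and AT5G32670 (12415966, delta -0.36). Another lay 69 bp from AT5G39785, at 15932416, with 10 of 42 against 30 of 49 reads (delta -0.37, adjusted p = 0.0120 by the exact test). The pseudogenes AT5G29708 (11634037, delta -0.40) and AT5G33253 (12514907, delta -0.35) held C-to-T calls, and the non-coding RNA gene AT5G28262 another (10238648, delta -0.41). The only G-to-A site called lower was in the pseudogene AT5G32481, at 12110737, with 3 of 35 against 19 of 55 reads (delta -0.26, adjusted p = 0.0465 by the exact test). A second G-to-A site in this pseudogene, at 12110718, lies 19 bp away, so the same fragments can cover both (delta -0.21, not called).

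The remaining sites of the lowest window did not pass the test. They were 15515330 in a stretch annotated as the RNA genes AT5G00550 and AT5G05785 (delta -0.29), 15797665 at 1922 bp from AT5G39471 (delta -0.43, 9 of 24 against 8 of 10 reads), 16039192 in AT5G40070 (delta -0.072) and 16189160 in AT5G40450 (delta -0.25). All 6 sites of that window had the lower index in the thm1_like pool.

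The only site called higher in the thm1_like pool was a G-to-A change at 20226554 in AT5G49770, in the right zone. All 10 thm1_like reads and 9 of 22 WTa_like reads carried the changed allele (delta 0.59, adjusted p = 0.0217 by the exact test). It was also the only site near fixation in the thm1_like pool, at an index of at least 0.9, with at most 0.5 in the WTa_like pool. Next in size among tested sites were G-to-A changes in AT5G10060 at 3147670 (9 of 12 against 2 of 10 reads, delta 0.55, adjusted p = 0.135 by the exact test) and in AT5G08630 at 2801485 (delta 0.35). Those in AT5G62710 at 25189562 and 694 bp from the nucleosome assembly gene NAP1;3 at 23036387 had deltas of 0.35 and 0.34. None of these 4 passed the test. The reverse arrangement, near fixation in the WTa_like pool, occurred once, in the pseudogene AT5G30410 at 11505469 (2 of 10 against 7 of 7 reads, delta -0.80). That site had too few reads to be tested, and 4 reads in WTa. SVL4 (AT5G58050), of the glycerophosphodiester phosphodiesterase-like family, had the most negative delta of the tested G-to-A sites (5 of 27 against 8 of 12 reads at 23494448, delta -0.48, adjusted p = 0.0594 by the exact test).

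Protein-coding bounds held 157 of the 298 sites (52.7%), and these sites fell in 160 genes, as 3 sites lay where 2 genes overlap. No protein-coding gene was hit more than once by sites in it alone. Pseudogenes held 34 sites, transcribed pseudogenes 2, and 101 lay outside gene bounds, 49 of them within 1000 bp of a protein-coding gene. The central zone had another makeup: 30.3% of its sites were in protein-coding bounds, against 74.0% in the left zone and 65.9% in the right zone, and 24.6% were in pseudogenes, against 3.17% in the right zone. The mean shift between the pools was nevertheless as large within genes, although a smaller share of tested sites was called there. The 37 central sites in protein-coding bounds had a mean index of 0.314 against 0.536 (delta -0.22, SD 0.128), and 36 of the 37 were lower in the thm1_like pool. The other 85 central sites had a delta of -0.19 (SD 0.214), with 70 lower. Over central C-to-T sites alone, delta was -0.22 in protein-coding bounds (SD 0.129, 36 sites) and -0.21 outside them (SD 0.208, 73 sites). Of tested central sites, 2 of 36 in protein-coding bounds were called lower (5.56%), against 14 of 80 outside them (17.5%). The 37 sites in protein-coding bounds of the left zone had a delta of 0.024 (SD 0.179), and the 83 of the right zone -0.015 (SD 0.193). Exons and codons were not used here, so no site was assigned to a coding change, an intron or a splice site.

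The central sites in genes with a symbol, named after their values were seen, numbered 14, and the index was lower in the thm1_like pool at every one (mean 0.290 against 0.543; delta -0.25, SD 0.115). Only that in SLAH3 was called. The zone opened with TERT, which encodes the telomerase reverse transcriptase, at 5540269 (9 of 24 against 15 of 35 reads, delta -0.054). The WTa allele there rests on 2 reads. With at least 5 WTa reads required, the longest C-to-T run began at 5.55 Mb and held 55 sites. SUS1, a sucrose synthase, had 6 of 14 against 16 of 19 reads at 7051865 (delta -0.41). CKX7, a cytokinin oxidase that degrades this hormone, had 6 of 18 against 14 of 20 reads at 7228706 (delta -0.37).

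RAN2, a small GTPase of nuclear transport, had a delta of -0.35 at 6764272. The cell cycle transcription factor gene E2F1 had -0.24 at 7363906, and the magnesium transporter gene MGT10 -0.29 at 7627875. CDF1, whose synonyms describe a chaperone-like protein of the chlorophyll synthesis enzyme POR, had 7 of 25 against 23 of 41 reads at 7731199 (delta -0.28). The amino acid permease gene AAP7 had 11 of 43 against 18 of 33 reads at 8030794 (delta -0.29). SOS3, the calcium sensor of salt tolerance, had 13 of 43 against 18 of 43 reads at 8239651 (delta -0.12). ARFB1B had -0.12, the apyrase gene APY2 -0.17, and the pollen receptor-like kinase gene PRK1 -0.26 at 13598796. The extensin gene EXT13, at 13434606, carried the only G-to-A change of the 14 (15 of 58 against 22 of 53 reads, delta -0.16).

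In the flanks, sites in genes with a symbol were split. In the left zone 7 of 17 were lower in the thm1_like pool and 10 higher, with a mean delta of 0.018 (SD 0.146). In the right zone 21 of 44 were lower, 21 higher and 2 equal, with a mean delta of -0.012 (SD 0.180). EIN2, a central component of ethylene signalling, had 6 of 8 against 7 of 17 reads at 792145 (delta 0.34), too few thm1_like reads to be tested. CPD, an enzyme of brassinosteroid synthesis, had 13 of 36 against 21 of 53 reads at 1705436 (delta -0.035). VTE5, a gene of the vitamin E pathway, had 8 of 32 against 14 of 29 at 1279580 (delta -0.23). In the right zone, EIR1, an auxin efflux carrier of the root, had 9 of 20 against 9 of 38 reads at 23101089 (delta 0.21). The transcription factor gene TGA1 had 26 of 57 against 23 of 62 at 26057687 (delta 0.085), and the DNA repair gene MRE11 7 of 21 against 5 of 16 at 22033049 (delta 0.021). BOU, a mitochondrial carrier gene, had 26 of 42 reads in both pools at 18990659 (delta 0). These genes were likewise chosen after their values were seen, and none of them was called.

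Grouped by words in their symbols and synonyms, few of the genes matched a family word. Transport words matched 5 sites, in CAT6, UMAMIT9, MGT10, AAP7 and ALA2, with a median delta of -0.27 and 4 lower in the thm1_like pool. Transcription factor or DNA-binding words matched 5 sites (median -0.019, 3 lower), 1 of them in the amino acid permease AAP2 through its letters alone. Kinase words matched 2 sites (median -0.16), cytochrome P450 words 2 (0.064) and hydrolase or transferase words 3 (-0.14). No symbol or synonym matched the disease resistance, F-box, pentatricopeptide or unknown words, and 140 sites matched no group (median -0.054). Those 140 include SLAH3, EIR1 and BOU, described above as a channel homologue and carriers. A group without a match therefore does not show that the family is absent. None of the sites in a word group was called, but the called site in SLAH3 is outside the transport group only for lack of a matching word. Over all 298 sites the median delta was -0.099.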

How the data were processed

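The deposited table gives raw read counts per site, allele and pool, the WTa depth and allele, and a SNP-index as a fraction, per the file headers. Per the submitters' processing notes, reads were placed on TAIR10; no source used here names the aligner, caller or filters. Indices were recomputed from the counts and matched the deposited fraction at all 1990 sites within 0.005; delta differed from the deposited difference by at most 0.0097. Tests used Python 3.11.15 and SciPy 1.17.1. Fisher's exact test was run on sites with at least 10 reads per pool, with Benjamini-Hochberg adjustment, and was tested on simulated data. Genes came from a RefSeq table of assembly TAIR10.1, which gives bounds, symbols and synonyms but no descriptions, so gene groups were matched on symbols and synonyms. Sites were named where called, among the 5 lowest or highest tested deltas, near fixation (0.9 against 0.5) or in the lowest window; other genes were named after their values were seen. The sites, tests and lists were chosen with earlier results of these data known. Alternatives changed read minimums, WTa depth, averaging, class, windows, adjustment and place.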

Additional observations from a re-analysis of the deposited data

How the results depend on the processing

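Of 62 alternative values, 43 stayed within their limits and 0 changed sign. The limits were 1.5 times for counts and, for means, the read-counting interval, which takes reads as independent. Counts and mean indices cannot change sign, and windows and stretches were chosen for a low delta. A change of sign was thus open only for mean delta and the class difference. Mean delta (-0.083) was -0.0036 over G-to-A sites, -0.20 over C-to-T sites, -0.099 as a median, -0.054 in protein-coding bounds and -0.047 without 10 to 14 Mb, an alternative added after the data were seen. The mean thm1_like index (0.371) was 0.412 over G-to-A sites, 0.309 over C-to-T sites, 0.401 in protein-coding bounds and 0.354 with at least 20 reads per pool. The mean WTa_like index (0.453) was 0.415 over G-to-A and 0.512 over C-to-T sites. Sites lower in the thm1_like pool (188) numbered 107 with at least 20 reads and 96 in protein-coding bounds, where fewer sites remain (166 and 157). Sites called lower (17 of 274 tested) numbered 1 with Bonferroni adjustment, 6 of 214 tested without 10 to 14 Mb and 16 to 18 otherwise. The 1 site called higher gave 0 with Bonferroni adjustment and 0 with at least 20 reads, which its 10 thm1_like reads do not reach. The lower stretch (-0.15) was -0.29 with windows of 500 kb, over 11 sites from 10.2 to 11.2 Mb. The longest class block (60 sites) was 124 G-to-A sites, from 17.00 to 26.93 Mb, when single sites of the other class were ignored. The difference of C-to-T minus G-to-A (-0.20) ranged from -0.20 to -0.18. No paired analysis was possible because each group is 1 library. At the median depth of 24 reads, small differences at single sites were not detectable.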
